A study of Mus musculus with 2 samples.

Results

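The cells described here are 1021 luminal mammary cells of the C3-TAg library that held little casein mRNA and much mRNA of mitotic genes, out of 9575 barcodes in that library (10.7%) and 18568 in both libraries of the study. They are called milk-low mitotic cells. A cell was taken when it had at least 500 genes, at least 1000 unique molecular identifiers (UMIs, 1 per captured mRNA molecule) and at most 10% mitochondrial UMIs. It further had under 5 UMIs per 10000 of the hormone-sensing genes Areg, Pgr, Esr1 and Cited1, and fewer than 4 detected genes among the immediate early genes Atf3, Egr1, Egr2, Nr4a1 and Arc. The 4 caseins Csn1s1, Csn1s2a, Csn2 and Csn3 had to give under 0.5% of its UMIs, Epcam, an epithelial adhesion protein, at least 1 UMI, and the 8 mitotic genes Mki67, Top2a, Cdk1, Ccnb1, Birc5, Ube2c, Cenpf and Nusap1 together at least 10 UMIs per 10000. The cells were thus chosen by measured values, the counts of these genes, and the levels of those genes are given as a description only.

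The study profiled sorted mammary luminal cells of FVB/NJ mice aged 3.5 months by droplet single-cell RNA sequencing, with 1 library per genotype. The WT mice carried the Sox9-GFP reporter, and the C3-TAg mice carried Sox9-GFP together with the C3-TAg transgene. In C3-TAg a prostatic steroid-binding protein promoter of the rat drives the simian virus T antigens, which bind the p53 and Rb proteins in mammary epithelium and in other epithelia. The number of mice behind each library and the sort gate are not stated in the labels. Cells of 1 library are not replicates, so no p-value is given, and all intervals are 95% intervals that cover counting error only.

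Luminal cells of the mammary gland comprise hormone-sensing cells and alveolar-lineage cells, and the latter make caseins under the control of Elf5 and Stat5. Cells that enter division first copy their DNA under E2F control, with Rb as the brake, and then switch on a later set of mitotic genes through CHR and CCAAT promoter elements that bind the DREAM and MuvB complexes and NF-Y. Krt17 is a keratin of basal, stressed and squamous epithelium, and Gja1 encodes connexin 43, a gap junction channel of basal and migrating epithelial cells.

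The milk-low mitotic cells held 11120271 UMIs in all, with a median of 10130 UMIs and 3319 genes per cell and a range of 1008 to 34684 UMIs. Their caseins had a median of 0.0176% of UMIs, 800 of the cells (78.4%) were under 0.05%, and 173 (16.9%) had no casein UMI at all. The 8 mitotic genes had a median of 18.5 UMIs per 10000 and reached 101.6. At the casein threshold, the highest member had 0.497% and the nearest cell outside 0.5001%, with 24 members between 0.4 and 0.5% and 31 cells between 0.5 and 0.6%. At the mitotic threshold, the lowest member had 10.01 UMIs per 10000 and the nearest cell outside 9.99, with 152 members between 10 and 12 and 139 milk-low cells between 8 and 10. The members thus lie well inside the casein threshold for the most part, whereas the mitotic threshold runs through a continuous range.

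**Figure D1:**
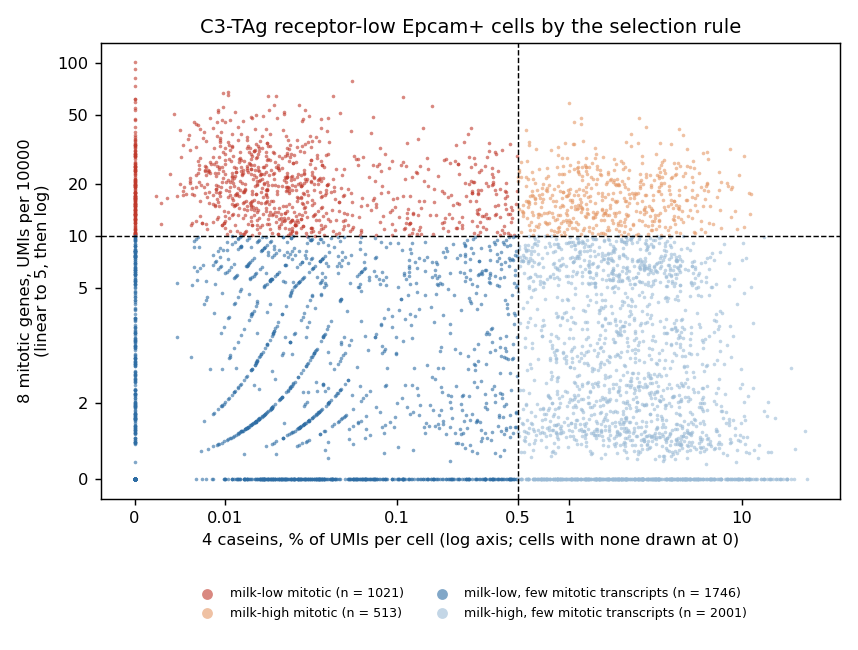
Each point is 1 of the 5281 C3-TAg cells that passed the quality, receptor, immediate early and Epcam steps, placed by the casein share of its UMIs (percent, log axis) and by UMIs of the 8 mitotic genes per 10000 (linear to 5, then log). Dashed lines mark the thresholds of 0.5% and 10 per 10000, and the 1021 milk-low mitotic cells fill the upper left corner, most of them far from the casein threshold.

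The same library gave 3 reference classes alike in every other step, with 513 milk-high mitotic cells, 1746 milk-low cells with few mitotic transcripts (under 10 per 10000) and 2001 milk-high cells with few mitotic transcripts. Median depth was 12640, 7040 and 9795 UMIs per cell in these classes. The same rule found 2 milk-low mitotic cells in the WT library of 8993 barcodes, beside 553 milk-low and 3776 milk-high cells with few mitotic transcripts, so no WT counterpart of the cells could be described. Scrublet called 39 milk-low mitotic cells doublets (3.82%) and 22 milk-high mitotic cells (4.29%), against 588 of all 8458 kept C3-TAg cells (6.95%). Of the 20 barcodes found in both libraries, 1 belonged to a milk-low mitotic cell.

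Promoter sequences are shown first because many of the mitotic genes described hold the same letters there, and because targets of the YAP and TEAD proteins were among the genes that differed by casein level. RefSeq promoters (GRCm38.p6) are printed from 200 bases upstream to the base before the start, with CHR (TTTGAA) and CCAAT matches on either strand in capitals for the mitotic genes Kif11, Ube2c and Ccnb2, a spindle motor, a ubiquitin-conjugating enzyme and a cyclin. In Ankrd1 and Ccn1, which encode a nuclear cofactor and a secreted matrix protein, capitals mark the TEAD letters GGAATG on either strand.
Kif11 (chr19:37376182-37376381, plus strand): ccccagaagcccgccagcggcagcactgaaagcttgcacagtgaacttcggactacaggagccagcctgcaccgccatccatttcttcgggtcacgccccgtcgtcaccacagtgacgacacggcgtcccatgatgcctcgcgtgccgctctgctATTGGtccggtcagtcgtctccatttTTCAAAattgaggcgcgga
Ube2c (chr2:164769729-164769928, plus strand): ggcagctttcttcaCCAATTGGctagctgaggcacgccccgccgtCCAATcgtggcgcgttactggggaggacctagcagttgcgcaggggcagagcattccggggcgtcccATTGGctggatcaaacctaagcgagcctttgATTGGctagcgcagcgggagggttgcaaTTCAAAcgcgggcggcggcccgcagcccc
Ccnb2 (chr9:70421555-70421754, minus strand): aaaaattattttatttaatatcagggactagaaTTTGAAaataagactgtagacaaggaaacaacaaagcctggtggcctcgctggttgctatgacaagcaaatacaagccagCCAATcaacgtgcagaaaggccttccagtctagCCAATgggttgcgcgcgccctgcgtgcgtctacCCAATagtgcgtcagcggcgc
Ankrd1 (chr19:36119845-36120044, minus strand): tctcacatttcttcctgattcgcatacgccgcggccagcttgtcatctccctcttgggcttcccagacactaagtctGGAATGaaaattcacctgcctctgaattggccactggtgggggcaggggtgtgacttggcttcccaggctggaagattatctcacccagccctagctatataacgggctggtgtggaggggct
Ccn1 (chr3:145649986-145650185, minus strand): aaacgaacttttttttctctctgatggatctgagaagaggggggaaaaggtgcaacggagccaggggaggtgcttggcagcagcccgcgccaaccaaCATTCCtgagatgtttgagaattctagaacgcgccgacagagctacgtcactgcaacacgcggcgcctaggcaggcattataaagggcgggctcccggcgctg
The Kif11 promoter holds TTTGAA on the reverse strand with its first base 19 bases upstream of the start and CCAAT 45 bases upstream, and Ube2c holds TTTGAA on the reverse strand 29 bases upstream. The match in Ccnb2 is 167 bases upstream, farther out than in the other promoters shown, and 3 CCAAT matches follow it. The promoters shown are examples that hold a match. Of the mitotic-list genes counted below, 15 of 41 held TTTGAA (36.6%, and 18.3% of all genes) and 28 held CCAAT (68.3%, and 37.5%). Of the higher YAP targets, 4 of 7 held GGAATG (57.1%, and 14.4% of all genes).

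The first comparison asked how dividing cells with little casein differed from dividing cells with much. Milk-low mitotic cells had more mRNA of Krt17, Gja1, the measured matrix genes, most measured YAP target genes and the cell cycle inhibitor Cdkn2a, and less mRNA of milk, lipid droplet and antimicrobial genes, than milk-high mitotic cells. Ankrd1, Inhba and Fn1, at 83.6 to 118.2 CPM (UMIs of the gene per 1000000 UMIs of the class) in the milk-low cells, were under 5 CPM in the milk-high cells. None of 27 measured genes of G2 entry and the spindle checkpoint differed by 2-fold. Of 6450 genes with at least 20 CPM in either class, 443 were higher by 2-fold or more in milk-low mitotic cells (6.87%) and 139 were lower (2.16%). With TMM scaling, which moves all log2 ratios by -0.20, the counts were 327 higher and 209 lower, and the higher share of the called genes went from 76.1% to 61.0%. The median log2 ratio of all tested genes was 0.23. Both classes were cut on casein, so these counts describe the split and test nothing.

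Among structural proteins, Krt17 (chromosome 11, 100256217 to 100261029, minus strand, GRCm38) stood at 321.1 CPM in milk-low mitotic cells, 28.1 in milk-high mitotic cells, 245.2 in milk-low cells with few mitotic transcripts and 22.9 in milk-high cells with few. Its log2 ratio between the mitotic classes was 3.51 (3.31 to 3.73). Gja1 (chromosome 10, 56377330 to 56402513, plus strand) followed the same order, with 239.4, 21.7, 201.9 and 29.3 CPM in the 4 classes and a log2 ratio of 3.46 (3.23 to 3.71). Both label markers therefore separated the cells by casein level and hardly by mitotic level. Krt80, an epithelial keratin, had 202.4 CPM against 39.7, and Krt16, a keratin of wounded skin, 31.1 against 14.6. Krt14, the main basal keratin, did not follow them, with 427.1 CPM against 540.8 in milk-high mitotic cells. So 3 of the 4 measured basal and stress keratins were higher by 2-fold or more (2 of 4 with TMM). Among simple keratins, Krt7 had a log2 ratio of 3.03 and Krt23 of 3.35, whereas Krt8 stood at 2617 against 2347 CPM and Krt19 at 646.8 against 990.5. Pkp1, a desmosomal plakophilin, had 103.0 CPM against 10.4, and Dsp, desmoplakin, 85.7 against 8.85, while Cldn7, a claudin, had 741.4 against 731.0. In the junction list 4 of 15 measured genes were higher by 2-fold or more and none lower. Of all tested genes 6.87% were higher and 2.16% lower, so none lower among 15 is near the share over all.

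The matrix and mesenchymal list had all 8 of its 21 genes that were measured higher by 2-fold or more, with a median log2 ratio of 2.64 over those 8. A gene at 20 CPM in the milk-low class alone entered this count, so it describes the measured genes only. Fn1, fibronectin, had 115.4 CPM against 4.14 (log2 ratio 4.80, 4.27 to 5.39), Sparc, a matrix glycoprotein, 36.8 against 1.43, Mmp14, a membrane matrix protease, 59.6 against 7.14, and Timp3, a protease inhibitor, 120.4 against 16.4. The contractile list had 4 measured genes, all higher, where 6.87% of all tested genes were. Here too a gene measured through the milk-low class alone could not enter as lower. Cald1, caldesmon, had 1048 CPM against 107.6, Tpm1 and Tpm2, tropomyosins, had log2 ratios of 1.77 and 4.26, and Tagln, transgelin, of 2.20. The defining myoepithelial markers were nearly absent. The 7 genes Acta2, Myh11, Krt5, Oxtr, Trp63, Cnn1 and Actg2 summed to 6.74 CPM in milk-low mitotic cells and 2.71 CPM in milk-high mitotic cells. Markers of fibroblasts summed to 2.70 CPM, of endothelium to 2.34 CPM and of immune cells to 6.29 CPM in the milk-low mitotic cells, and no gene of these 4 lists reached 20 CPM in either mitotic class. Hormone-sensing luminal markers (Prlr, Foxa1, Ptgs1, Fxyd2, Ly6a, Tnfsf11, Wnt4 and Cldn10) were not absent, and 3 of them were measured. Ly6a had a log2 ratio of 1.17, but with TMM scaling none of the 3 differed by 2-fold. Unthinned, 44.3% of milk-low mitotic and 48.5% of milk-high mitotic cells had at least 2 UMIs of these markers. Thinned to 2000 UMIs, the shares were 6.98% and 4.87%. Ptprc, the pan-leukocyte marker, had a UMI in 0 of 1017 milk-low mitotic cells thinned to 2000 UMIs, and 3 counts, the limit set for a count of 0, would be a share of cells with a UMI of up to 0.295%, which does not limit the share of cells expressing it.

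In the list of YAP targets, genes switched on by the YAP and TEAD proteins under mechanical tension, 8 of 12 measured genes were higher by 2-fold or more, none was lower, and the median log2 ratio was 1.93. By comparison, 6.87% of all tested genes were higher and 2.16% lower. As in the matrix list, genes measured through the milk-low class alone, such as Ankrd1, Nt5e and Ajuba, could not enter the count as lower. Ankrd1 stood at 118.2 CPM against 3.43 (log2 ratio 5.11, 4.53 to 5.76), Nt5e, an ectonucleotidase, at 22.7 against 1.71, and Ajuba, a LIM protein, at 28.3 against 5.42. Ctgf and Cyr61, secreted matrix proteins (Cyr61 is Ccn1 in RefSeq), were at 536.8 against 56.7 CPM and 2242 against 585.4 CPM. The letters GGAATG, on either strand in the 250 bases upstream of the start, were in the promoters of 4 of the 7 higher YAP targets with a RefSeq entry (57.1%), in 14.4% of all 27025 genes and in 12.6% of all 32851 promoters. This motif was chosen after the values were seen. Tead1 and Tead4 themselves had log2 ratios of 0.43 and 0.09.

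Among secreted ligands, Inhba, which encodes the activin A subunit, had 83.6 CPM against 2.43 (log2 ratio 5.11, 4.42 to 5.89). Id3, a helix-loop-helix inhibitor induced by bone morphogenetic proteins, had 55.03 against 4.14. In the TGFb list 5 of 12 genes were higher by 2-fold or more, where 6.87% of all tested genes were. The EGF receptor ligands Hbegf, with 823.8 CPM against 155.7, Epgn, with 25.6 against 3.43, and Tgfa, with 31.1 against 14.1, were also higher. Of the NFkB and cytokine list 9 of 15 genes were higher by 2-fold or more, with TMM scaling 5. Part of this rested on few cells, since 66.0% of the Cxcl10 UMIs in milk-low mitotic cells came from 5 cells. S100a6, a calcium-binding protein, had 2452 CPM against 291.0, and S100a8, a neutrophil and alveolar alarmin, 9.08 against 161.0.

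Cell cycle brakes were part of the difference. Cdkn2a (chromosome 4, 89274471 to 89294653, minus strand), which encodes the CDK inhibitor p16 and the p53 activator p19Arf, had 149.2 CPM in milk-low mitotic cells, 7.99 in milk-high mitotic cells, 80.9 in milk-low cells with few mitotic transcripts and 3.95 in milk-high cells with few. The counts do not tell its 2 products apart. Cdkn1a, p21, had 380.1 against 91.2 CPM between the mitotic classes, and Cdkn1b, p27, 115.5 against 82.9. Of 15 measured p53 targets, 5 were higher by 2-fold or more and none lower (4 higher and 1 lower with TMM), namely Pmaip1 with a log2 ratio of 3.66, Phlda3 with 3.15, Perp with 2.07, Plk2 with 1.56 and Btg2 with 1.10. The shares over all tested genes were 6.87% higher and 2.16% lower. Sox11, a factor of embryonic progenitors, had 63.6 CPM against 3.43. Sox9 (chromosome 11, 112782224 to 112787760, plus strand), the reporter gene of the mice and a progenitor factor, had 528.9, 330.5, 499.3 and 287.6 CPM in the 4 classes, a log2 ratio of 0.68 (0.61 to 0.75) between the mitotic classes. Vtcn1 (chromosome 3, 100825459 to 100896922, plus strand), which encodes the T cell inhibitory ligand B7x, was low throughout, with 14.3 CPM against 9.85 and a log2 ratio of 0.54 (0.12 to 0.97).

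**Figure D2:**
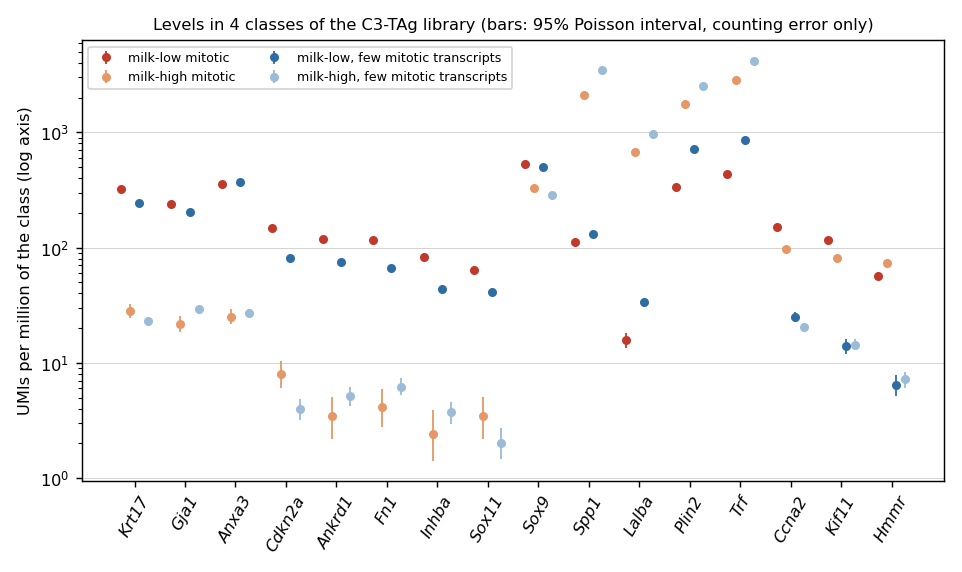
Levels of 16 genes, as CPM of a class (log axis), in the 4 classes of the C3-TAg library, with 95% Poisson intervals. Krt17 to Sox11 are high in both milk-low classes, Spp1 to Trf in both milk-high classes, and Ccna2, Kif11 and Hmmr in both mitotic classes.

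On the lower side, which held 2.16% of all tested genes, stood the secretory program. The 4 caseins, which the rule used, were at 58.6 to 213.3 CPM in milk-low mitotic cells and at 3265 to 10547 CPM in milk-high mitotic cells. Milk genes outside the rule went with them. Lalba, alpha-lactalbumin, had 15.7 against 673.9 CPM, Glycam1, a milk mucin, 3.51 against 211.5, and Spp1, osteopontin, 111.4 against 2100. Of 7 measured milk genes, 6 were lower by 2-fold or more and none higher, with a median log2 ratio of -4.24. Of the lipid list 6 of 13 were lower, among them Plin2, a lipid droplet coat protein, with 337.4 against 1768 CPM, Btn1a1, butyrophilin, with 4.32 against 54.7, and Xdh, its partner in fat globule secretion, with 17.6 against 85.1. Among antimicrobial and secretory genes 8 of 13 were lower. Genes measured through the milk-high class alone, such as Lalba, Glycam1, Btn1a1 and Xdh, could not enter these counts as higher. The classes were cut on casein, so the counts describe that split only. Ltf, lactoferrin, had 510.6 against 2071 CPM and Lrg1 20.7 against 297.3, while Wfdc2, an epithelial secreted protein, was higher at 193.7 against 30.3. Elf5, the alveolar fate factor, had 73.4 against 235.3 CPM, Cd14, a surface marker of luminal progenitors, 513.3 against 1919, and Gata3, a luminal factor, 113.4 against 267.7. Aldh1a3, an enzyme that also marks luminal progenitors, went the other way, with 253.4 against 60.7 CPM.

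**Figure D3:**
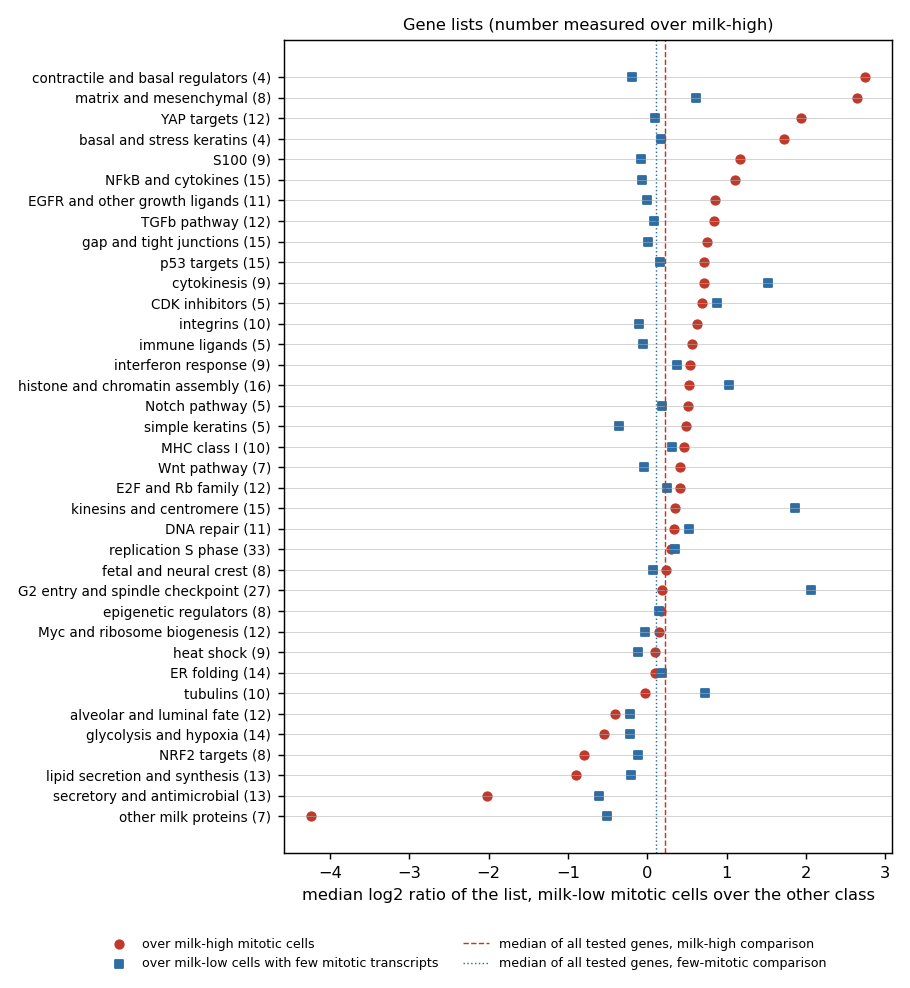
Median log2 ratio of each gene list in milk-low mitotic cells over milk-high mitotic cells (circles) and over milk-low cells with few mitotic transcripts (squares), with the number of genes measured in the first comparison in brackets. Dashed and dotted lines are the medians of all tested genes, 0.23 and 0.11. Circles spread from -4.24 to 2.74, and squares leave the centre mainly for the mitotic lists.

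Of the cell cycle lists, those of mitotic entry and replication were near the median of all genes in the milk-low against milk-high comparison, and the cytokinesis list was above it. Both classes passed the same mitotic threshold, so the rule in part fixes this likeness. The list of G2 entry and spindle checkpoint genes had none of 27 measured genes higher or lower by 2-fold, with a median log2 ratio of 0.19, and the 33 replication genes had 1 higher, Uhrf1, with a median of 0.30. The cytokinesis list had a median of 0.71 and 1 of 9 genes higher, Anln, an actin-binding protein of the cleavage furrow, with 238.5 against 82.5 CPM. Kif23, a motor of the central spindle, had 116.9 against 50.7 CPM.

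Levels were also followed over finer steps of casein among all mitotic C3-TAg cells, to see whether the other genes went in a step or gradually. Krt17 stood at 381.8 CPM in the 800 cells under 0.05% casein, at 153.4 in 55 cells from 0.05 to 0.1%, at 66.2 in 79 cells from 0.1 to 0.25% and at 129.3 in 87 cells from 0.25 to 0.5%. Beyond the threshold it stood at 53.3, 28.4 and 13.3 CPM in 134, 162 and 217 cells of rising casein share. Fn1 had 136.0 CPM in the lowest step, 41.3 to 48.5 in the next 3, and 12.3, 1.9 and 1.0 above the threshold. Cd14 took the opposite course, from 343.2 CPM in the lowest step to 811.9 in the next and 2289 in the highest, and Plin2 went from 171.9 to 558.5 and 2067 CPM. Krt17 and Fn1 thus had their highest level in the cells with next to no casein, and members of 0.05 to 0.5% casein were intermediate. Sox9 went from 541.8 to 294.8 CPM and Mki67 from 379.3 to 275.0 over the same steps.

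**Figure D4:**
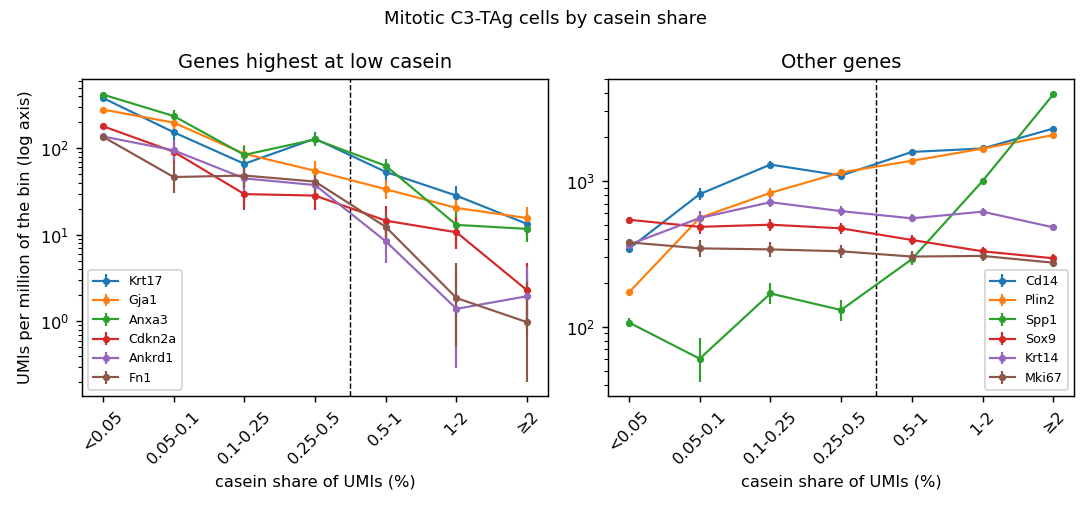
CPM (log axis) in mitotic C3-TAg cells of 7 casein steps, with 95% Poisson intervals, and the dashed line at the 0.5% threshold of the rule. Krt17, Gja1, Anxa3, Cdkn2a, Ankrd1 and Fn1 have their highest level under 0.05% casein, Cd14, Plin2 and Spp1 their highest from 2%, and Mki67 and Sox9 are flatter.

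The second comparison asked what milk-low cells with many mitotic transcripts had beyond milk-low cells with few. Here most measured genes of mitotic entry, kinesins and cytokinesis were higher by 2-fold or more. No measured gene of the basal keratin, matrix and YAP lists was, which for so few genes is near the share over all genes. Of 6354 genes, 152 were higher by 2-fold or more (2.39%) and 25 were lower (0.393%), with a median log2 ratio of 0.11 over all genes. The classes were not matched on casein, which had a median of 0.0176% in the mitotic cells and 0.0269% in those with few mitotic transcripts. Under 0.05% casein were 78.4% of the former and 66.2% of the latter. The part of casein level in the differences of this comparison was not tested. The rule used 8 mitotic genes, and genes that vary with them are described only. Of the label markers among them, Mki67, a proliferation marker, stood at 369.5, 291.6, 52.9 and 44.7 CPM in milk-low mitotic, milk-high mitotic, milk-low and milk-high cells, the latter 2 with few mitotic transcripts. Top2a, a topoisomerase that untangles chromosomes, stood at 573.7, 389.8, 87.1 and 62.6 CPM, and Cenpf, a kinetochore protein, at 207.2, 109.3, 26.1 and 26.6. Ccna2, cyclin A2, had 151.5 against 25.1 CPM, Ccnb2, cyclin B2, 91.1 against 15.1, Aurkb, a spindle checkpoint kinase, 57.2 against 9.25, and Kif11 116.2 against 13.9. Cenpa, the centromeric histone, had 237.8 against 39.0 CPM, and Hmmr, a spindle protein, 57.2 against 6.41. In the list of G2 entry and spindle checkpoint genes 25 of 26 measured genes were higher by 2-fold or more, in the kinesin and centromere list 12 of 15, and in the cytokinesis list 9 of 9. In the histone and chromatin assembly list 9 of 16 were (7 with TMM). In these lists, genes measured through the mitotic class alone, such as Ccnb2, Kif11 and Hmmr, could not enter the counts as lower. The counts therefore describe the split by mitotic genes and test nothing. Linker histone Hist1h1b had 382.4 against 29.4 CPM, and the core histones Hist1h2ap and Hist1h2ae had 205.5 against 12.8 and 131.7 against 10.6. Near-identical histone copies can share reads, so the split between these genes is uncertain.

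Replication genes were mixed, where 2.39% of all tested genes were higher by 2-fold or more and 0.393% lower. Of 33, 5 were higher by 2-fold or more (3 with TMM), among them Pclaf, a partner of the replication clamp, with 560.1 against 202.1 CPM and Tk1, thymidine kinase, with 37.0 against 16.2. Gins2, a subunit of the replicative helicase, was lower, with 44.0 against 90.3 CPM, and its level over rising mitotic steps of the milk-low cells was 78.5, 101.9, 97.7, 70.6, 38.2 and 23.8 CPM. The log2 ratio of Gins2 was -1.04, but -0.77 with thinning to 2000 UMIs, -0.95 with per-cell means and -0.97 without Fn1-bearing cells. Ung, a repair glycosylase, was at 36.2 against 65.3 CPM. Whether milk-low cells with few mitotic transcripts were resting was not tested. Cdkn2d and Cdkn2c, the inhibitors p19 and p18, had log2 ratios of 1.76 and 1.09, and the latter was at 0.99 with TMM.

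Of the other lists, none of 12 YAP targets, 8 matrix genes, 15 p53 targets or 4 basal and stress keratins was higher or lower by 2-fold or more. With 2.39% of all tested genes higher and 0.393% lower, none among so few genes is near the share over all. The matrix list still leaned upward, with 7 of 8 genes above a log2 ratio of 0 and a median of 0.50 after TMM scaling. The YAP targets had 6 of 12 above 0. Krt17 had a log2 ratio of 0.39, Gja1 of 0.25, Fn1 of 0.81, Inhba of 0.94 and Cdkn2a of 0.88, each under the 2-fold line. Over 6 rising mitotic steps Krt17 stood at 221.4, 284.9, 245.1, 205.6, 397.6 and 329.5 CPM, and Sox9 stayed between 458.0 and 556.2 CPM. Among the lower genes, Hmox1, heme oxygenase, had 129.6 against 273.6 CPM, Plin2 337.4 against 713.3, and Apoe, apolipoprotein E, 36.5 against 77.6. The log2 ratio of Apoe was -1.09, but -0.73 in cells with at most 5% mitochondrial UMIs and -0.97 in cells with at least 5000 UMIs. Glycam1 had the lowest ratio, 3.51 against 409.8 CPM, but 5 cells held 99.2% of its UMIs in the milk-low cells with few mitotic transcripts, and without the 5 richest cells of each class its log2 ratio was -0.23. Slpi, an antiprotease, had a log2 ratio of -1.37 that was -0.30 in cells with at most 5% mitochondrial UMIs.

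Letters of the cell cycle promoter elements were counted in the 250 bases upstream of the start, on both strands. Of the 46 mitotic-list genes that were higher by 2-fold or more in the second comparison, 41 had a RefSeq promoter. CCAAT was in 28 of them (68.3%), in 37.5% of all 27025 genes and in 33.8% of all 32851 promoters. TTTGAA was in 15 (36.6%), in 18.3% of all genes and in 15.99% of all promoters. The E2F letters TTTCCCGC or TTTGGCGC were in 2 (4.88%), in 1.51% of all genes and in 1.30% of all promoters. A match describes letters in this window only.

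UMIs of 34 replication genes and of 55 genes of mitotic entry, kinesins and cytokinesis were compared within each cell, after thinning to 2000 UMIs. Milk-low mitotic cells had a median of 40 UMIs per 10000 in both sets, and 51.3% of them had more replication than mitotic UMIs (48.2 to 54.4%, exact Clopper-Pearson interval). Milk-high mitotic cells had medians of 35 and 30, with 53.02% of cells on the replication side (48.6 to 57.4%). Milk-low cells with few mitotic transcripts had medians of 30 and 10, and 77.1% were on the replication side (75.1 to 79.1%). Milk-high cells with few mitotic transcripts had medians of 15 and 10, and 61.9% were on the replication side (59.8 to 64.1%). The mitotic set is tied to the rule, since both follow the same phase. Cells under the mitotic threshold thus have few mitotic UMIs by selection, and the sets differ in size. The share on the replication side therefore does not give the share of cells in a cell cycle phase.

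**Figure D5:**
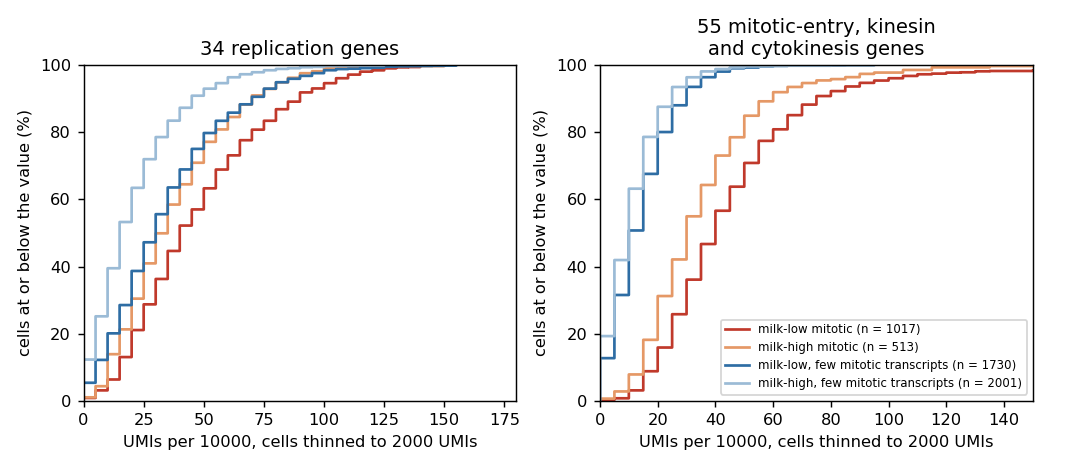
Cumulative share of cells (percent) by UMIs per 10000 of 34 replication genes (left) and 55 mitotic-entry, kinesin and cytokinesis genes (right), cells thinned to 2000 UMIs. The milk-low mitotic curve lies farthest right in both panels, with a median of 40, and the classes with few mitotic transcripts have a mitotic median of 10.

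The share of mitotic cells by casein level was set beside the WT library. After thinning to 2000 UMIs, 41.4% of C3-TAg milk-low cells had at least 10 per 10000 of the 8 mitotic genes (1136 of 2747, 39.5 to 43.2%) and 27.2% of milk-high cells had (683 of 2514, 25.4 to 29.0%). Without thinning the shares were 36.9% and 20.4%. In WT they were 0.364% (2 of 549, 0.0441 to 1.31%) and 0.186% (7 of 3772, 0.0746 to 0.382%), and without thinning 0.360% (2 of 555) and 0.0529% (2 of 3778). The sort gate can set which cells enter these shares.

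The label markers were then read cell by cell. With cells thinned to 2000 UMIs, Krt17 was found in 22.5% of milk-low mitotic cells, in 18.7% of milk-low cells with few mitotic transcripts and in 3.12% of milk-high mitotic cells, and Gja1 in 23.7%, 20.9% and 4.09%. Both genes together were found in 9.44% of milk-low mitotic cells and in 0.585% of milk-high mitotic cells. Unthinned, 40.9% of milk-low mitotic cells had a Krt17 UMI and 44.6% a Gja1 UMI, and the share rose with depth, so a cell without a UMI cannot be read as lacking the mRNA. As a background, hormone-receptor cells with at least 5 UMIs per 10000 of Pgr, Esr1 and Cited1 (1197 cells, median 8070 UMIs) had a Krt17 UMI in 2.76% and a Gja1 UMI in 2.35%. With Areg counted as in the rule, that class had 11.1% and 10.2%, and the stricter class was chosen after these values were seen. Krt14 was found in 35.5% of milk-low mitotic and 51.3% of milk-high mitotic cells. Csn2 was found in 20.1% of milk-low mitotic cells, against 98.2% of milk-high mitotic cells and 16.6% of the hormone-receptor cells. Csn2 is a rule gene, so its share in the mitotic classes follows from the selection. The hormone-receptor cells had no casein limit and held Csn2 at 637.4 CPM, so these shares do not compare lineages.

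Milk-low mitotic cells were not uniform, and milk-low cells with few mitotic transcripts showed a like split. Thinned to 5000 UMIs, 312 of 965 had a Krt17 UMI (32.3%) and 653 had none, a split chosen after the values were seen. Casein had a median of 0.0151% in the former and 0.0197% in the latter, but the sides were not matched on casein. Csn1s1 had 96.2 CPM in cells with and 199.7 CPM in cells without a Krt17 UMI, Csn2 126.3 and 227.3, and Csn3 114.1 and 198.8. Lalba, which is outside the rule, had 4.49 and 22.4 CPM, whereas Spp1 had 110.9 and 103.8. The part of casein level in the differences of this split was not tested. Of 3549 genes with at least 50 CPM on either side, 54 were higher by 2-fold or more in cells with Krt17 (1.52%) and 15 were lower (0.423%). Gja1 had 532.1 CPM with and 118.2 CPM without, Fn1 255.1 and 50.2, Inhba 192.3 and 26.6, Ankrd1 255.1 and 60.03, and Cdkn2a 248.7 and 85.5. Adamts1, a matrix protease, had 182.7 and 27.0 CPM, and Tpm2 94.2 and 18.7. On the other side Igfbp5, which binds insulin-like growth factors, had 76.9 and 282.4 CPM, Trf, transferrin, 180.8 and 560.5, Elf5 35.9 and 88.2, and Cd14 262.8 and 642.9. Mki67 was at 376.9 and 375.5 CPM and Ccnb2 at 88.5 and 93.7. As a group, the cells with Krt17 thus had more connexin, matrix, activin and Cdkn2a mRNA. Mki67 belongs to the rule, so its like level on both sides was in part set by the selection. Top2a, also of the rule, had 648.7 and 533.8 CPM. Milk-low cells with few mitotic transcripts, split alike, had Gja1 at 513.5 and 99.2 CPM and Fn1 at 215.7 and 24.7. Cdkn2a was at 215.2 and 46.9 CPM there, Cd14 at 355.1 and 1034, and Mki67 at 57.9 and 47.1. The split was therefore not particular to the mitotic cells.

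The third comparison set the casein split of mitotic cells beside the same split of cells with few mitotic transcripts, which share no cell with it. There, 366 of 6067 genes were higher by 2-fold or more in milk-low cells (6.03%) and 114 lower (1.88%). Krt17 had a log2 ratio of 3.51 in mitotic cells and 3.42 in cells with few mitotic transcripts, Cdkn2a of 4.22 and 4.36, Anxa3, an annexin, of 3.82 and 3.78, and Sox11 of 4.21 and 4.35. Of 3519 genes with at least 50 CPM in one of the 4 classes, 3503 (99.5%) differed by less than 1 on the log2 scale between both splits. Most tested genes were under 2-fold in each split, so this share does not tell whether the genes past 2-fold were alike. Inhba had 5.11 against 3.55, a difference of 1.55 (0.79 to 2.32), Fn1 4.80 against 3.40, a difference of 1.40 (0.81 to 1.99), and Saa1, an acute phase protein, -4.84 against -6.58. Cxcl10 had 2.65 against 4.73 and S100a8 -4.15 against -2.43. In the milk-high mitotic class, 82.8% of the 29 Fn1 UMIs and 89.8% of the 108 Cxcl10 UMIs came from 5 cells, so the levels of both genes in that class rest on few cells.

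In WT the same split of cells with few mitotic transcripts had 385 of 5458 genes higher by 2-fold or more in milk-low cells (7.05%) and 136 lower (2.49%). WT milk-low cells were closer to the threshold, with a median of 0.195% casein, and 81 of 553 (14.6%) were under 0.05%. Elf5 and Spp1 had log2 ratios of -1.19 and -5.01 there, against -1.42 and -4.73 in C3-TAg. Krt17 was at 95.1 CPM in WT milk-low cells but in 1.46% of them (thinned to 2000 UMIs), against 18.7% in C3-TAg. Fn1 was at 0.217 CPM, Cdkn2a at 1.52 CPM and Sox11 at 1.30 CPM in WT milk-low cells, against 66.0, 80.9 and 41.1 CPM in C3-TAg milk-low cells with few mitotic transcripts, and Ankrd1 had a UMI in 0 of the 553 WT cells, where 3 counts would be a share of cells with a UMI of up to 0.542%. The 7 myoepithelial markers summed to 56.9 CPM and the fibroblast markers to 67.3 CPM in the WT milk-low cells, against 6.74 and 2.70 CPM in the C3-TAg milk-low mitotic cells, and their part in the WT levels was not tested. The genotypes came from 1 library each, so genotype and library cannot be told apart.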

How the data were processed

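The deposited files hold whole-number UMI counts per gene and barcode, which per the submitters' processing notes the authors produced using Cell Ranger 3.1.0 and the mm10 build. They were not normalized, and the barcode calling is not stated in the labels. The C3-TAg matrix held 91932121 UMIs in 9575 barcodes and the WT matrix 91133082 in 8993. The T antigen and reporter transcripts were not analysed here.

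UMIs were summed over the cells of each class and divided by the class total, giving CPM (UMIs per 1000000). Ratios carry exact conditional Poisson intervals, levels exact Poisson intervals and shares Clopper-Pearson intervals. A gene was measured from 20 CPM in either class and counted from a 2-fold ratio. Rule genes were left out of counts. For shares, cells were thinned to 2000 UMIs (shallower cells, 4 members, left out). Doublets were called with Scrublet in scanpy 1.11.5 and kept. TMM factors came from edgeR 4.0.16, and all else from Python 3.11.15, numpy 2.4.6, scipy 1.17.1 and pandas 2.3.3, with the ratio step tested on simulated data. No test across samples was possible. Groups were taken from the labels.

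The cells and the gene lists were chosen with earlier results of these data known. Named genes are, of each of the first 2 comparisons, those with the 10 highest and 10 lowest ratios at 50 CPM or more (for the third, the 5 largest differences either way), without rule, mitochondrial, ribosomal, immunoglobulin and unnamed genes, together with rule genes, label markers, Sox9, Vtcn1 and up to 2 genes at each end of each list. Other list members and the genes of the Krt17 split were named after their values were seen. Alternatives tried were TMM scaling, totals without rule genes, no level filter, doublets out, per-cell means, thinning, other thresholds of casein, mitotic, depth and mitochondrial share, and cells with Fn1 left out.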

Additional observations from a re-analysis of the deposited data

Results flagged for a closer look

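Apoe and Ptges, a prostaglandin synthase, differed in direction between the libraries in the casein split of cells with few mitotic transcripts. The log2 ratio of milk-low over milk-high cells for Apoe was -2.23 in C3-TAg and 0.94 in WT, a difference of -3.18, and that of Ptges was -1.33 and 0.60, a difference of -1.93. In the mitotic cells of C3-TAg they had log2 ratios of -2.90 and -2.09. These differences between the libraries were not tested, since each genotype had 1 library.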

How the results depend on the processing

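With 1 library per genotype, no result has a replicate check, and intervals hold counting error only. No paired analysis was possible because each group has 1 library. Against the main counts of 443 higher and 139 lower genes (mitotic cells, milk-low over milk-high) and 152 higher and 25 lower (milk-low cells, many over few mitotic transcripts), TMM scaling gave 209 lower in the former. Without a level filter the counts were 1304 and 404, and 447 and 239, over more genes. In the latter comparison, thinning gave 39 lower, cells with at most 5% mitochondrial UMIs 13 lower, and mitotic thresholds of 20 and 5 per 10000 gave 267 higher and 55 lower. Of the genes named and past 2-fold, at most 7 of 89 in the first comparison and 5 of 58 in the second fell under it with any single alternative. The genes that fell under it differed between alternatives, so more genes did so with at least 1 of them. Fxyd2 turned from 1.55 to -0.85 (log2, first comparison) at the mitotic thresholds of 20 and 5, and Rsad2 from -1.07 to 3.47 there and to 2.91 without its 5 richest cells per class, an alternative chosen after seeing the data. Shares moved with depth. The mitotic share of milk-low cells was 36.9% unthinned, and that of milk-high cells was 20.4% unthinned and 24.1% at 5000 UMIs. The share of milk-low mitotic cells with a UMI, unthinned and at 5000 UMIs, was 40.9% and 32.3% for Krt17, 44.6% and 35.8% for Gja1, 91.9% and 78.0% for Mki67, 95.7% and 89.2% for Top2a, and 67.5% and 49.5% for Cenpf. The cause was not tested beyond depth.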

Other observations

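Several groups not described above had smaller differences. Between milk-low and milk-high mitotic cells 6.87% of all tested genes were higher by 2-fold or more and 2.16% lower. Of 10 measured MHC class I genes none differed by 2-fold between milk-low and milk-high mitotic cells, and their median log2 ratio was 0.47. H2-D1, a class I heavy chain, had 4079 against 2536 CPM, and B2m, the shared light chain, 1241 against 1296. Of 14 glycolysis and hypoxia genes, 2 were lower by 2-fold or more (5 with TMM) and none higher, with a median log2 ratio of -0.55. Pfkl, liver phosphofructokinase, had 21.8 against 52.5 CPM and Vegfa, an angiogenic factor, 20.3 against 41.0. Of 8 NRF2 targets, 2 were lower (4 with TMM), Hmox1 with 129.6 against 499.4 CPM and Gclc, a glutathione synthesis enzyme, with 38.9 against 86.3.

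Of 10 measured genes of the tubulin list, 4 (Tuba1b, Tubb5, Tubg1 and Stmn1, the last encoding the tubulin-binding protein stathmin) were higher by 2-fold or more in milk-low mitotic cells than in milk-low cells with few mitotic transcripts, and 1 was higher by 2-fold or more than in milk-high mitotic cells. Among all tested genes 2.39% were higher in the former comparison and 6.87% in the latter. Tuba1b had 745.0 CPM in milk-low mitotic cells, 268.7 in milk-low cells with few mitotic transcripts and 883.4 in milk-high mitotic cells. Tuba1a, the 1 past 2-fold over milk-high mitotic cells, had 129.7, 82.3 and 38.8 CPM in the same order. In cells above 25 mitotic UMIs per 10000, Krt8 stood at 2112 CPM, against 3882 CPM in milk-low cells under 2.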
